A study of Homo sapiens with 2 samples.

Results

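Expression of 7 keratin genes was examined in Ca9-22 cells, a human line of oral squamous cell carcinoma (OSCC). They were the basal layer keratins KRT5, KRT14 and KRT15 and the simple epithelial keratins KRT7, KRT8, KRT18 and KRT19. Members were taken by the gene name printed for each probe on the array, which gave 7 of 43317 gene names and 11 of 58201 non-control probes. One culture of Ca9-22 cells carried a DLEU1 lentiviral vector and the other carried a control vector, described as empty in the study's methods. Both had been infected and kept under Blasticidin selection for 2 weeks, and DLEU1 is a long noncoding RNA. Each RNA was hybridised to 1 Agilent 1-colour array, so n = 1 per group and no test between the groups was possible. Since the RNA came from whole cultures, fewer cells of a type and less RNA per cell cannot be told apart in any value below.

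Keratins are the intermediate filament proteins of epithelial cells. Each filament is built from a type I chain paired with a type II chain, so keratins are made in pairs. KRT5 (type II) and KRT14 (type I) form the pair of the dividing basal layer of stratified epithelia, such as the lining of the mouth, and KRT15 is another type I chain of that layer. KRT8 (type II) and KRT18 (type I) form the pair of simple, single-layered epithelia, where KRT7 (type II) and KRT19 (type I) are also made. Squamous carcinomas commonly hold basal keratins and often gain simple ones. With the exception of KRT18, whose gene lies beside KRT8, type II keratin genes sit in a cluster on chromosome 12 and type I genes in a cluster on chromosome 17.

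DLEU1 itself was measured first as a check of the labels. Its brightest probe had a log2 level of 3.17 in control vector cells and 5.91 in DLEU1 vector cells, a difference of 2.74. The other DLEU1 probes were dimmer and differed by 0.85 and 0.54, and the mean over all 3 was 1.38. A log2 level here is the processed spot signal on the log2 scale minus the 75th percentile of the array, and every difference is DLEU1 vector minus control vector. All 10 markers of squamous carcinoma that were looked up were detected on both arrays, meaning that the scanner software placed them well above background. Detection alone does not tell cell types apart, since 11 of 12 simple epithelium markers were detected on both arrays too.

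All 11 keratin probes were detected on both arrays and none was saturated. Their local background was between 21 and 28 signal units, against a lowest keratin signal of 73.1. The software gave each of these signals an error of 10% to 11%, which comes to about 0.20 on the log2 difference for most probes and 0.22 for the dimmest. Spots of the same probe, replicated on the array, gave an SD of 0.08 for the log2 difference over 282 probes. Different probes of a gene had a pooled SD of 0.47 over 4674 gene names. None of these errors contains the variation between cultures.

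Several probe sequences are printed first because they bear on what the signals can mean. All probes are 60 bases long, are written 5′ to 3′ and are placed on hg19. The brighter KRT14 probe (chr17:39740013-39740072, minus strand) is shown with a probe of the transcript ENST00000420566 (chr17:28895838-28895897, minus strand), the only other probe on the array that shared a run of at least 16 bases with any keratin probe above, on either strand. The capitals mark the shared run of 33 bases.
KRT14 A_33_P3345534: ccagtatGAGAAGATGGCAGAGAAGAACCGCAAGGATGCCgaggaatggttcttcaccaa
ENST00000420566 A_24_P887857: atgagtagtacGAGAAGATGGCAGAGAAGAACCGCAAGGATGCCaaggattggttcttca
KRT14 A_21_P0011517: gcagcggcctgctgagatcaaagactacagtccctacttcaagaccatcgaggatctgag
The second KRT14 probe (chr17:39742569-39742628, minus strand) held no such run, and is shown because it gives KRT14 a reading that does not depend on the shared bases.

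The KRT8 and KRT18 probes below are shown because these neighbouring genes lie on opposite strands. In the RefSeq gene table of the GRCh38 assembly, used for neighbours only, the gene bodies of KRT8 and KRT18 overlap at their edge. One KRT8 probe belongs to the noncoding KRT8 transcript NR_045962 and lies on the minus strand, 2277 bases before the nearest plus-strand KRT18 probe. That distance is between probes, and whether this KRT8 probe lies within the KRT18 gene was not looked up.
KRT8 A_33_P3372368 (chr12:53343241-53343300, minus strand): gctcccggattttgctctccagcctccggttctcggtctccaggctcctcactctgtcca
KRT18 A_24_P42136 (chr12:53345577-53345636, plus strand): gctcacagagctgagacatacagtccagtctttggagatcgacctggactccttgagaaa
KRT18 A_32_P151544 (chr12:53346116-53346554, plus strand): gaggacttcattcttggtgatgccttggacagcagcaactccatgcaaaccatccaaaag
KRT8 A_24_P67395 (chr12:53294461-53294995, minus strand): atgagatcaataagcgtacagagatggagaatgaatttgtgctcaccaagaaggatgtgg
A_32_P151544 maps over 439 bases and A_24_P67395 over 535, more than their own 60, so each is split by at least 1 intron on the genome.

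The basal keratins were higher with the DLEU1 vector, each by more than 4-fold, whereas the simple epithelial keratins did not move together. KRT19 was higher, KRT7 and KRT8 were close to equal on the 2 arrays, and KRT18 was lower by close to 2-fold. At a threshold of 2-fold, 5 of the 11 probes were higher and 1 was lower. Among all 26279 probes detected on both arrays, 8.98% passed this threshold upwards and 9.78% downwards. The 5 higher probes were those of KRT5, KRT15 and KRT19 and both probes of KRT14.

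KRT5, the type II basal chain, is read by A_23_P218047 at chr12:52908622-52908681 (minus strand, NM_000424). Its processed signal was 28686 in control vector cells and 119985 in DLEU1 vector cells. On the log2 scale the level went from 6.89 to 8.99, a difference of 2.10 or 4.29-fold. This is many times the spot SD of 0.08, and 1.71% of all probes detected on both arrays had a larger difference.

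KRT14, the type I partner of KRT5, had a processed signal of 5698 in control vector cells and 39953 in DLEU1 vector cells at its brighter probe. The log2 level went from 4.56 to 7.40, a difference of 2.85 or 7.20-fold. The second probe, which does not hold the shared run, went from 703 to 6125, a difference of 3.16 or 8.95-fold. Both KRT14 probes were thus higher with the DLEU1 vector, and they differed from each other by 0.31, less than the pooled SD of 0.47 between probes of a gene. The ENST00000420566 probe matched the brighter KRT14 probe at 51 of 56 aligned bases and differed by 2.96. Its signal was 2692 in control vector cells and 20437 in DLEU1 vector cells, and its reading cannot be told apart from that of KRT14 where labelled RNA binds both.

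KRT15, another type I chain of the basal layer, is read by A_23_P27133 at chr17:39670142-39670201 (minus strand, NM_002275). Its signal was 24561 in control vector cells and 160291 in DLEU1 vector cells. The log2 level went from 6.66 to 9.41, a difference of 2.74 or 6.70-fold. Only 0.67% of the probes detected on both arrays had a larger difference.

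Within the basal group the difference of KRT14 exceeded that of KRT5 by 0.75, with an error of 0.29 from the software's signal errors. KRT15 exceeded KRT5 by 0.64, with the same error of 0.29. The pooled SD between probes of a gene gives an SD of 0.665 for a gap between 2 probes, so neither gap clearly exceeded the spread between probes. KRT14 and KRT15 differed by 0.10, within both errors. The median difference of the basal keratins was 2.74, beside -0.07 over all probes detected on both arrays.

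**Figure D1:**
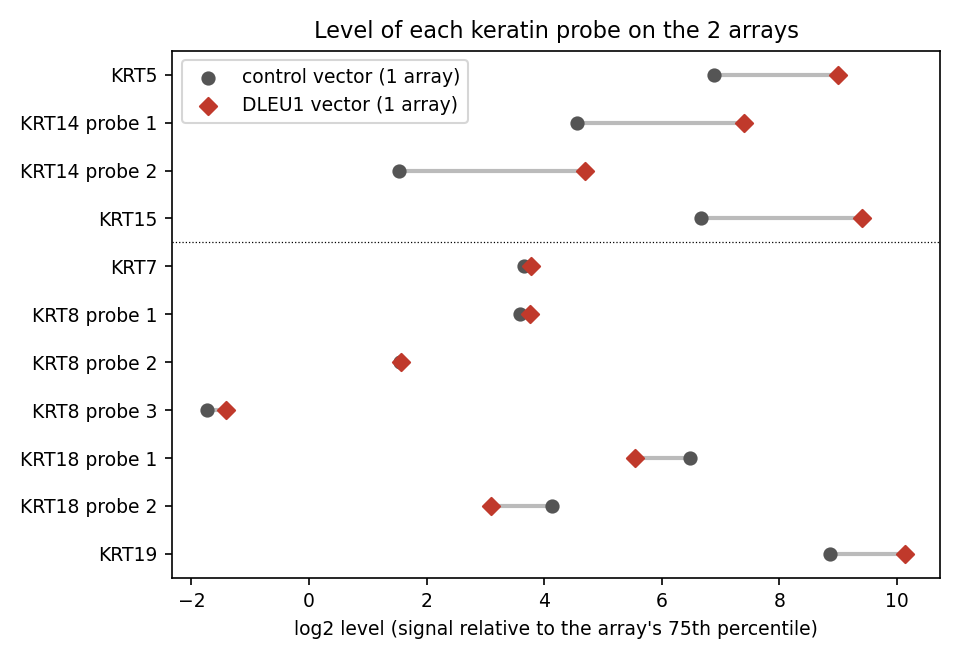
Level of the 11 keratin probes on the 2 arrays. The horizontal axis is the log2 level relative to the 75th percentile of the array, grey circles are the control vector and red diamonds the DLEU1 vector (1 array each), and the dotted line parts basal from simple epithelial keratins; probes of a gene are numbered from the brightest. KRT14 moves most, from 4.56 to 7.40 at its brighter probe, while KRT7 and the KRT8 probes overlap and both KRT18 probes lie to the left with the DLEU1 vector.

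KRT8, the type II simple chain, has 3 probes on the array. A_23_P14072 (chr12:53291026-53291085, minus strand, NM_002273) had a signal of 2900 in control vector cells and 3211 in DLEU1 vector cells, a log2 difference of 0.18. The probe of NR_045962 had signals of 706 and 699, a difference of 0.02, which is a value for a noncoding transcript and not for the coding mRNA. The spliced probe A_24_P67395 was the dimmest of all, with signals of 73.1 and 88.7 and a difference of 0.32. All 3 differences were far under 2-fold and lay within 0.29 of each other. The sign of the brightest probe's difference depended on the scaling, since it was -0.21 when the spike-in probes were set equal on both arrays.

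KRT18, the type I partner of KRT8, was lower with the DLEU1 vector at both of its probes. A_32_P151544 had a signal of 21711 in control vector cells and 11065 in DLEU1 vector cells, and its log2 level went from 6.49 to 5.55. This is a difference of -0.93, or 1.91-fold lower. A_24_P42136 went from 4258 to 2020, a difference of -1.04 or 2.05-fold lower. The probes differed by 0.10 and lay on either side of the 2-fold threshold, so that the number of members called lower was set by the threshold. Of the probes detected on both arrays, 11.1% and 8.99% had a lower difference than these.

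The difference of KRT18 was 1.12 below that of its partner KRT8 at their brightest probes, with an error of 0.29 from the signals and an SD of 0.665 from the spread between probes. A constant shift of an array cannot change such a gap. Under the 5 settings that shift probes unequally (quantile, loess, normexp, the deposited rounded table and local medians) its size was between 1.06 and 1.29. The KRT8 probe on the strand opposite to KRT18 stood 0.96 and 1.06 above the KRT18 probes. Levels of the encoded proteins were not measured.

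KRT7, a type II chain of simple and ductal epithelia, is read by A_33_P3350748 at chr12:52642590-52642649 (plus strand, NM_005556). Its signal was 3062 in control vector cells and 3237 in DLEU1 vector cells, a log2 difference of 0.12, which is within the error of 0.20. With spike-in scaling this difference was -0.28. KRT7 and KRT8 differed from each other by 0.07.

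KRT19, the smallest keratin, found in simple epithelia and also in some basal cells, is read by A_23_P66798 at chr17:39679918-39679977 (minus strand, NM_002276). Its signal was 112528 in control vector cells and 264820 in DLEU1 vector cells. The log2 level went from 8.86 to 10.13, a difference of 1.27 or 2.42-fold, and 5.72% of all probes detected on both arrays had a larger one. Under spike-in scaling alone the difference dropped under 2-fold, to 0.87. The median over the 4 simple epithelial keratins was 0.15, and it was -0.25 with spike-in scaling.

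**Figure D2:**
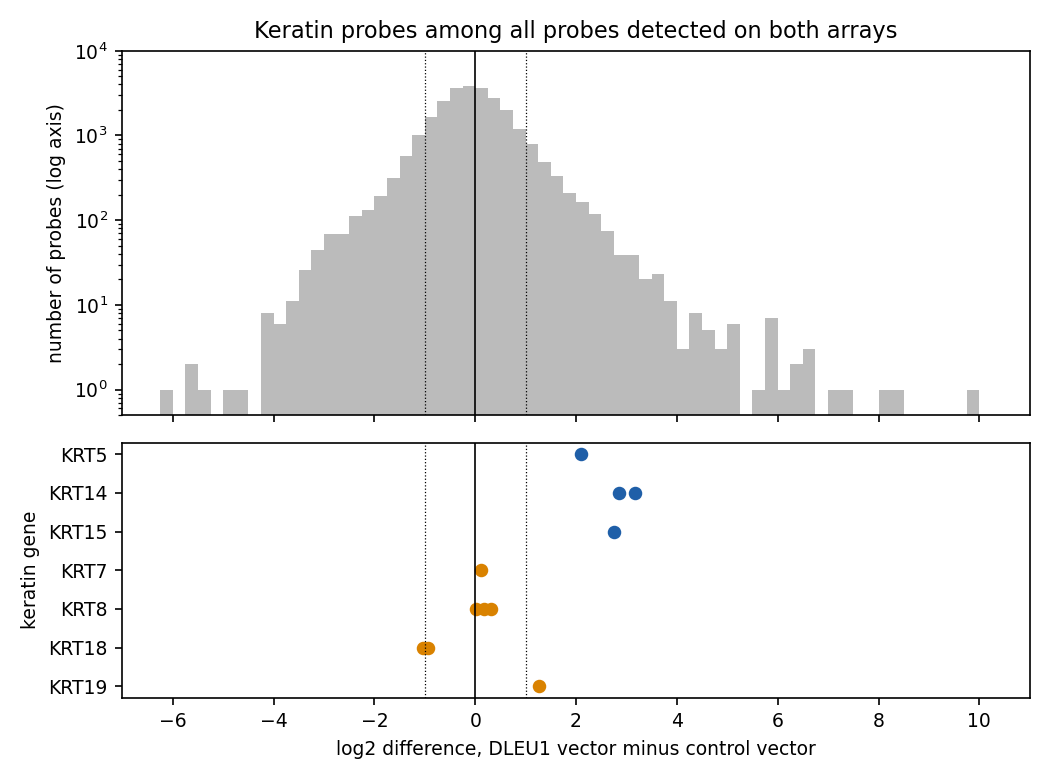
Differences of the keratin probes beside those of all probes. The upper panel counts the 26279 probes detected on both arrays by log2 difference (log axis) and the lower panel places each keratin probe on the same horizontal axis, with basal keratins in blue and simple epithelial keratins in orange; dotted lines mark 2-fold. The basal probes lie at 2.10 or more, where the counts of all probes are low, and the simple epithelial probes spread from -1.04 to 1.27.

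The order of the 7 genes by difference was KRT14, KRT15, KRT5, KRT19, KRT8, KRT7 and KRT18. The neighbours KRT14 and KRT15, and likewise KRT8 and KRT7, did not differ beyond the signal error. The lowest basal keratin (KRT5) stood 0.83 above the highest simple one (KRT19), which is above the signal error of 0.29 and close to the SD of 0.665 for a gap between 2 probes. This gap was between 0.80 and 0.95 under the 5 settings that shift probes unequally.

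**Figure D3:**
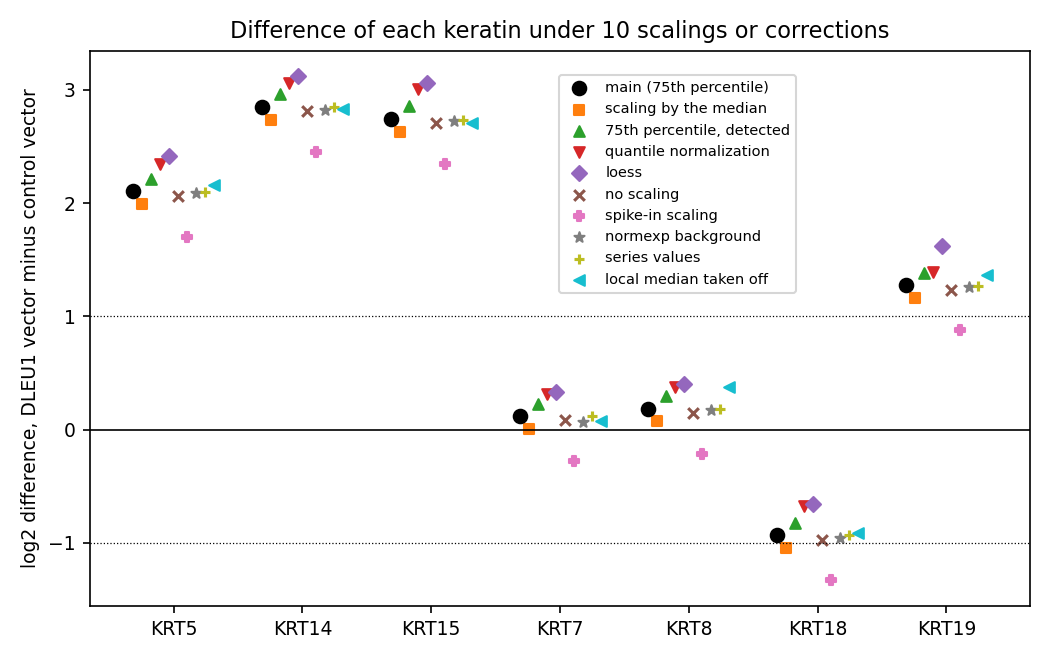
Difference of each keratin at its brightest probe under 10 scalings or corrections. The vertical axis is the log2 difference, each symbol is 1 setting, black circles are the values of the text and dotted lines mark 2-fold. KRT5, KRT14 and KRT15 stay above 1.70 in every setting shown, KRT18 stays between -1.33 and -0.66, and KRT7 and KRT8 fall below 0 with spike-in scaling only.

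Array position was examined because a strip of 808 probes on the DLEU1 vector array gave low signals. None of the 11 keratin probes lay in it (0 of 11). The median difference of the 100 detected probes nearest to a keratin probe was between -0.19 and 0.11. Taking off that local median left KRT5 at 2.16, KRT14 at 2.83, KRT15 at 2.71 and KRT18 at -0.91.

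Processed pseudogenes are DNA copies of a gene's RNA inserted elsewhere in the genome, and KRT8 and KRT18 have many. KRT18P55 (chr17:26603763-26603822) had signals of 5001 in control vector cells and 2543 in DLEU1 vector cells. Its difference of -0.94 was within the spot SD of that of KRT18. KRT8P12 (chr3:160287003-160287062) had signals of 662 and 663 and a difference of 0.04, which was below 0 with median scaling and spike-in scaling. KRT19P2 (chr12:95228736-95228795) went from 3731 to 18545, a difference of 2.35, which is 1.08 above that of KRT19. None of these probes shared a run of 16 bases with a probe of its parent gene, and whether they read the parent's RNA was not tested.

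The other simple keratins KRT20 and KRT23 were detected on the DLEU1 vector array only. KRT23 was at least 33.4-fold higher and KRT20 at least 2.59-fold higher, each set against the higher of the probe's own signal and the lowest detected signal on the control vector array. The KRT23 value is from the probe with the larger bound. A dimmer KRT23 probe, with a signal of 40.2 in DLEU1 vector cells, gave a bound of 2.91-fold. The stress-inducible keratins are made in wounded or fast-growing stratified epithelium. They were at least 2-fold higher in 5 of 5 genes, against 9.18% of all gene names detected on both arrays. The median difference of these 5 genes was 3.77, and they ranged from KRT6A at 2.91 to KRT16 at 6.66. Another KRT16 probe was detected on neither array, with signals of 3.79 and 3.76. At their brightest probes the basal keratins had smaller differences than the stress-inducible ones, KRT14 by 0.06 under KRT6A, which is within the signal error.

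The suprabasal keratins belong to the layers above the basal one. Of 14 on the array, 8 were detected on both, and at 2-fold 5 of these were higher and 1 was lower. Over all gene names detected on both arrays, 9.18% were higher and 9.78% lower by this measure. Among the 8 detected on both arrays, KRT4, a mucosal type II keratin, had the highest difference at 8.36 and KRT80 the lowest at -1.01. The signal of KRT4 in control vector cells was only 30.7. KRT80, the lower gene, was not called with the percentile of detected probes, quantiles, loess, normexp or local medians. The DLEU1 vector array alone detected another 4, among them KRT1 at no less than 1468-fold higher, and 2 were detected on neither. The median over the 8 was 1.56 and that with the bounds of the 4 included was 2.01, and over the alternatives the median ran from 0.53, when a signal of at least 100 was required on both arrays, to 2.08, when detection on either array was enough.

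Along chromosome 12, the detected keratin genes next to the members differed widely. KRT5 stood between KRT6A at 2.91 and KRT74 at 2.60, whereas KRT7 stood between KRT80 at -1.01 and KRT81 at -0.48. KRT8 and KRT18 ended the row, after KRT78 at 1.17. Of the 19 detected keratin genes on chromosome 12, 14 had a difference above 0, 9 were higher at 2-fold and 2 were lower at 2-fold. Over all gene names detected on both arrays, the shares at 2-fold were 9.18% higher and 9.78% lower. With spike-in scaling, 9 of the 19 were above 0. On chromosome 17 all 13 detected keratin genes had a difference above 0, a count that was 12 with median scaling and 10 with spike-in scaling, and 8 of them were at least 2-fold higher, a number that ran from 6 to 9 with the setting. There, KRT19 at 1.27 stood between KRT15 at 2.74 and KRT9 at 2.74.

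**Figure D4:**
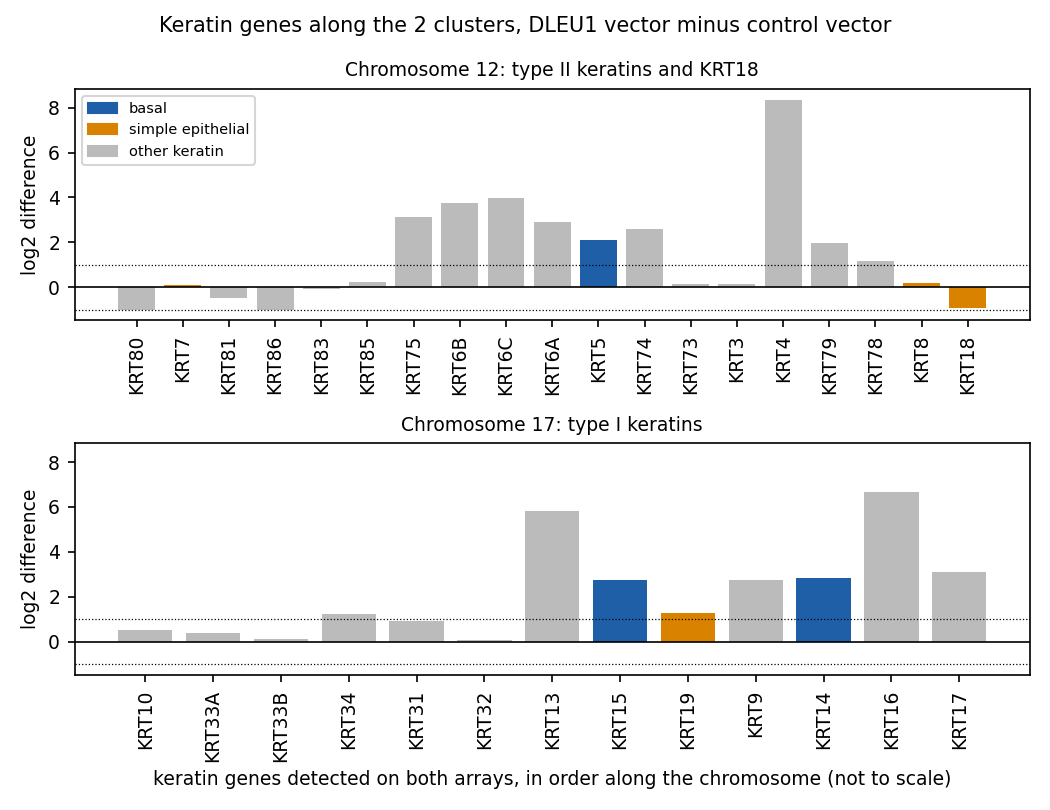
Log2 difference (vertical axis) of the keratin genes detected on both arrays, in their order along chromosome 12 (19 genes) and chromosome 17 (13 genes), not drawn to scale. Blue bars are basal, orange bars simple epithelial and grey bars other keratins, each from 1 array per group, and dotted lines mark 2-fold. Bars above 2-fold stand side by side from KRT75 to KRT74 around KRT5, while KRT7 stands among shorter or negative bars. KRT8 and KRT18 follow KRT4, KRT79 and KRT78, whose bars are also above 2-fold.

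For each member, the keratin with the most similar difference was looked up among the 25 other keratins detected on both arrays. It was KRT79 for KRT5 (1.95), KRT6A for KRT14 (2.91) and KRT9 for KRT15 (2.74). For the simple keratins it was KRT33B for KRT7 (0.13), KRT73 for KRT8 (0.16), KRT86 for KRT18 (-1.002) and KRT34 for KRT19 (1.23). The gaps were between 0.01 and 0.15. KRT79 was dim, with a signal of 34.1 in control vector cells, and with normexp its difference was 1.01, or 1.08 below that of KRT5. With 1 difference per gene such likeness is a description only.

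Other markers of the basal layer mostly differed by under 2-fold. All 17 were detected on both arrays. At 2-fold 1 was higher and 0 were lower, against 9.18% and 9.78% of all gene names detected on both. CDH3, the P-cadherin of basal cells, was highest at 1.18 and NGFR, a neurotrophin receptor, was lowest at -0.94. Their median was -0.19, and it ran from -0.59 with spike-in scaling, where 0 were higher and 3 lower at 2-fold, to 0.03 with loess or quantile normalization. The integrin chains ITGA6 and ITGB4, which anchor basal cells through hemidesmosomes, differed by -0.23 and -0.09, and were chosen after their values were seen.

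Among markers of simple epithelium, 11 of 12 were detected on both arrays. Of these, 6 were at least 2-fold higher, against 9.18% of all gene names detected on both arrays. Under other scalings, between 3 and 7 were higher. EPCAM, an epithelial adhesion molecule, was lowest at -0.78. CLDN3, a tight junction claudin, was detected with the control vector only and was at least 1.78-fold lower with the DLEU1 vector. The median of the list was 1.04, and it ran from 0.64 with spike-in scaling to 1.26 with loess. The probe at the median lay in the strip of low signals, and without that strip the median was 0.96. With the bound of CLDN3 included it was 0.93.

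Proteins that link keratin filaments to cell junctions were also counted. Of 13 genes, all detected on both arrays, 5 were higher at 2-fold and 0 were lower, against 9.18% and 9.78% of all gene names. PKP1 (plakophilin 1), a desmosomal protein of stratified epithelium, was highest at 2.28, and PKP2 (plakophilin 2) was lowest at -0.63. The median was 0.00 and took either sign with the scaling.

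Other intermediate filament genes mostly lay on the lower side. Of 16, 11 were detected on both arrays, 2 with a difference above 0 and 9 below. At 2-fold, 4 were lower and 0 were higher, against 9.78% and 9.18% of all gene names detected on both arrays. The number lower was between 2 and 7 under other scalings. LMNB1, a nuclear lamin, was lowest at -2.30 and INA, a neuronal filament protein, was highest at 0.96. The median was -0.97, and it was -0.16 with no filter on dim probes and -0.68 with the mean over probes of a gene.

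Of 21 transcription factors known to act on keratin genes, 20 were detected on both arrays. At 2-fold, 6 were higher and 2 were lower, against 9.18% and 9.78% of all gene names detected on both arrays. ZNF750, an epidermal differentiation factor, was highest at 4.22, and FOSL1, an AP-1 subunit, was lowest at -4.05. Only the DLEU1 vector array detected POU2F3, which was at least 3.77-fold higher. TP63, the master regulator of stratified epithelium that acts on KRT5 and KRT14, differed by 0.96, and was chosen after its value was seen.

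The squamous carcinoma markers included 5 of 10 genes that were higher at 2-fold and 0 that were lower. Of all gene names detected on both arrays, 9.18% were higher and 9.78% lower. Under other scalings, 2 to 6 of the squamous markers were higher. DSG3, a desmosomal cadherin, was highest at 2.51 and ITGA6 lowest. Proliferation genes were at least 2-fold lower in 10 of 10 cases, from PCNA at -1.95 to MKI67 at -3.09, with a median of -2.81. Their part in the keratin values was not tested.

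Markers of other cell types were mostly low or undetected. Fibroblast markers were detected for 2 of 6 genes on the control vector array and for 3 of 6 on the other array. COL1A1 differed by 3.99 and PDGFRB by -0.33, LUM was at least 2.47-fold higher, and COL1A2, COL3A1 and DCN were not detected on either array. The endothelial markers VWF and CDH5 differed by 3.70 and -0.59, and PECAM1 and KDR were not detected. Leukocyte markers were detected for 3 of 4 genes on each array, with PTPRC at 0.45, CD79A at 0.22 and CD14 at -1.60, and CD3E was not detected. The melanocyte markers PMEL and DCT differed by 0.10 and -0.96, and MLANA and TYR were not detected. Summed over the probes of a list, the signal relative to the 75th percentile went from 1.59 to 22.5 for fibroblasts, from 0.64 to 2.94 for endothelium, from 8.12 to 9.31 for leukocytes and from 1.85 to 1.79 for melanocytes. The part of such cells in the keratin values was not tested.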

How the data were processed

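RNA of Ca9-22 cells carrying the DLEU1 vector or the control vector was hybridised to 1 Agilent 1-colour array per group, both on 1 slide in 1 scan. The deposited intensity values were written by Agilent Feature Extraction 10.7.3.1 (10.7 in the submitters' processing notes), which per the file headers subtracted local background. The deposited values were not normalized between arrays, and a separate deposited table holds the same intensity, rounded to within 0.497%. Each array held 62976 spots. Control spots, and 84 and 103 spots marked as outliers, were left out.

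Signals were put on the log2 scale, spots of a probe averaged and the 75th percentile of the array subtracted (7.92 for the control vector and 7.88 for the DLEU1 vector). Each gene took the value of the brightest of its probes that both arrays detected, and differences of 2-fold were called. Precision is limited by the number of arrays. Alternatives were median, quantile, loess (span 0.3), spike-in and no scaling, normexp with an offset of 50 (limma 3.58.1, R 4.3.3), the deposited table, filters on dim probes, the mean over probes, local medians of 100 probes and other thresholds. Leaving out the low strip was chosen after seeing the data.

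Named genes were the 7 keratins, DLEU1, pseudogenes of the keratins, the keratin nearest to each in difference, the extreme genes of each list and the detected markers of other cell types. Members and lists were chosen with earlier results of these data known. Exon and UTR positions of the probes on hg19 were not used here. Marker CD68 was not matched by name and was not used. Another gene that the naming rule covers is not reported here.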

Additional observations from a re-analysis of the deposited data

How the results depend on the processing

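With 1 array per group, no value has a replicate error. The median of all detected probes moved by up to 0.40 with the scaling, and members moved with it. Of 14 alternatives, 4 (the filters on dim probes and leaving out the low strip) could not change a keratin value, since their brightest probes passed each filter and lay outside the strip. The other 10 gave 70 values for the 7 keratins, of which 32 were within the spot SD of 0.08 and 38 were not. Some of the 32 had little or no room to move. The mean over probes cannot change KRT5, KRT15, KRT7 or KRT19, which have 1 probe each. No scaling shifted every probe by -0.04, and the deposited table holds the same intensity, rounded. KRT5, KRT14, KRT15 and KRT19 were above 0 and KRT18 below 0 in all 10, and KRT7 and KRT8 turned negative with spike-in scaling. The number of member probes at least 2-fold higher was 4 or 5 throughout.

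The median of the basal keratins was 2.63 under median scaling, 2.86 where only detected probes set the percentile, 3.01 by quantiles, 3.06 by loess and 2.35 by spike-ins. In the same order, that of the simple epithelial keratins was 0.0379, 0.26, 0.35, 0.37 and -0.25. Member probes at least 2-fold lower numbered 2 with median scaling, spike-in scaling or a 1.5-fold threshold. They numbered 0 with the percentile of detected probes, quantiles, loess, local medians taken off or a 3-fold threshold. Over all probes, spike-in scaling gave 1254 higher and 5659 lower, no filter on dim probes 5537 and 5008, a 1.5-fold threshold 4772 and 5832, and a 3-fold threshold 958 and 855. Higher probes made up 47.9% of those called, and 18.1% with spike-in scaling. They numbered 1329 with normexp and 1226 with a signal of at least 100. Without a filter, the median of the endothelial markers was -0.28 in place of 1.56. The cause of these shifts was not tested. No paired analysis was possible because each group had 1 array.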

Other observations

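Hair keratins, the chains of hair and nail, were chosen after their values were seen. Of 17 on the array, 9 were detected on both arrays, 1 of them higher and 1 lower at 2-fold, with a median difference of 0.13. These counts lay near the shares over all gene names detected on both arrays, 9.18% higher and 9.78% lower. KRT34 was the higher one at 1.23, and KRT86 the lower one at -1.002. KRT34 was under 2-fold with spike-in scaling (0.84) and normexp (0.94), and KRT86 with the percentile of detected probes (-0.89), quantiles (-0.97), loess (-0.96), normexp (-0.78) and local medians (-0.92). KRT37 and KRT39 were detected on the DLEU1 vector array only, KRT37 at least 35.2-fold higher and KRT39 at least 1.47-fold higher.

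The pseudogene probe KRT42P A_33_P3857239, chosen after its values were seen, had signals of 714 in control vector cells and 8157 in DLEU1 vector cells, a difference of 3.55. The dimmer KRT42P probe A_33_P3341490 went only from 50.2 to 88.9, a difference of 0.86, and A_33_P3213522 was detected on neither array. A KRT16P2 probe, likewise chosen afterwards, went from 1257 to 17379, a difference of 3.83.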
